A study of Rattus norvegicus with 8 samples.

Results

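Interleukin-17 (IL-17) receptors, the ligands Il17b and Il25, and the receptor adaptor Traf3ip2 were followed across mature hepatocytes (MHs), small hepatocyte-like progenitor cells (SHPCs) of control livers and SHPCs of livers given bone marrow-derived mesenchymal cells (BM-MCs). The members were the 8 genes Il17rb, Il17ra, Il17rc, Il17rd, Il17re, Il17b, Il25 and Traf3ip2, of 36174 gene names on the rat array, taken by the name that the array design gives each probe. They had 11 probes printed in 22 spots, of 45598 probes and 58717 spots. Every one of the 8 genes was on the array, and the RefSeq symbol of all 11 probes matched the name in the array design.

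The IL-17 receptors are single-pass membrane proteins that work in pairs. Il17ra is the shared chain. It pairs with Il17rc to bind IL-17A and IL-17F, with Il17rb to bind IL-25 (also called IL-17E), and with Il17re to bind IL-17C, while Il17b is a ligand of Il17rb. Bound receptors recruit Act1, the adaptor encoded by Traf3ip2, through a domain that receptor and adaptor share, and Act1 passes the signal to TRAF6, NF-kB and MAP kinases and to proteins that stabilise mRNAs of chemokines. IL-25 is best known from type 2 immune responses in epithelia, and IL-17A from neutrophil recruitment. In liver, hepatocytes, cholangiocytes, Kupffer cells and stellate cells have all been described as cells that respond to members of this family.

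All 8 samples came from F344 rats whose livers had been treated with retrorsine, a plant alkaloid that blocks hepatocyte division, followed by partial hepatectomy (PH). There were 2 samples of MHs from control recipient livers, 3 samples of SHPC clusters from control recipient livers and 3 samples of SHPC clusters from recipient livers that had received cultured BM-MCs of a male donor rat through the spleen. Per the methods the recipients were females that lack dipeptidyl-peptidase IV (DPPIV), whereas the labels give a DPPIV-positive strain. The cells were cut from sections by laser microdissection, so that neighbouring non-parenchymal cells can be in each sample, and the donor cells were a plastic-adherent culture of bone marrow. Ages of the recipients and the animal behind each sample were not given in the sources used here, so the p-values measure the spread between these samples, which may be technical.

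Between 57.0% and 61.5% of the marked spots of an array were well above background, and 0 spots were saturated. Background marks of control SHPC replicate 2 were at hand for 19479 of 58717 spots only, because its scanner file ended early. All 8 markers of hepatocytes were measured in every group, with means between 5.61 and 6.07 on the log2 scale described below. The 6 proliferation genes had a mean of -3.80 to -3.38 in MHs, -0.86 to -0.44 in control SHPCs and -1.995 to -1.17 in SHPCs with BM-MCs. The 8 arrays were on 1 slide, in sets of 4. The first held both MHs and control SHPC replicates 1 and 2, and the second held control SHPC replicate 3 together with every sample with BM-MCs. MHs and samples with BM-MCs thus share no set. A fit with the set as a block joins them only through the control SHPCs, of which replicate 3 alone stands for the second set.

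Each probe was a run of 60 bases. Il17rb was read by 1 probe with 1 spot, at chr16:5336424-5336483 on the minus strand of the rn4 build, and its sequence is shown because all statements on Il17rb rest on this spot. The probe for Il25, the ligand of Il17rb, lay at chr15:33037900-33037959 on the plus strand and is shown because it gave no signal well above background. That for Il17rc mapped to chr4:149374124-149374303 on the plus strand, a span of 180 bases for 60 probe bases, so it joins sequence that is apart in the genome. No letter is set in capitals.
Il17rb: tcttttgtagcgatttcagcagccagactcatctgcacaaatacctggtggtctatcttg
Il25: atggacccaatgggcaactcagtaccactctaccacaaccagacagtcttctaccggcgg
Il17rc: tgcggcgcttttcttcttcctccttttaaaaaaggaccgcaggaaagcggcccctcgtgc

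The other probes had these places in rn4. The Il17ra probe lay at chr4:156862284-156862343, the tested Il17rd probe at chr16:2360428-2360487, and the Il17b probe at chr18:57667477-57667536. Il17re had a pair of probes that start 3 bases apart from chr4:149361635-149361694 and share a run of 57 bases, so they read the same stretch. Traf3ip2 had 1 probe at chr20:43792144-43792203 and another that spanned chr20:43788785-43791835, with 5 bases as the longest shared run. The exons and untranslated regions under the probes were not annotated here, as a genome of this build was not used.

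Signals are given as the scanner's background-subtracted intensities, and the log2 levels relative to the 75th percentile of the same array, which was 1254 to 1742. Tests were limma fits to the 23111 probes that exceeded background clearly on 3 or more of 7 arrays, and a member passed at a Benjamini-Hochberg adjusted p under 0.05. Of the 8 members 7 had a tested probe. Il25 and the further Il17rd probe were not tested.

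No member passed the test in any comparison. In SHPCs with BM-MCs against control SHPCs 0 of 7 members passed, where 0.0216% of all probes passed. In control SHPCs against MHs 0 of 7 passed, beside 1.13% of all probes, and in SHPCs with BM-MCs against MHs 0 of 7 passed, beside 0.338%. At an unadjusted p under 0.05 the members numbered 2, 4 and 1 of 7 in these comparisons, while 16.6%, 19.2% and 13.3% of all probes were under that value. The methods' t-test without adjustment called 2, 3 and 0 of 7 members, beside 14.9%, 17.5% and 9.25% of all probes. The lowest adjusted p of a member was 0.183 for Traf3ip2 in the first comparison, 0.14 for Il17re in the second and 0.351 for Il17re in the third. Both comparisons with MHs use the same 2 MH samples, and both comparisons with control SHPCs use the same 3 control samples.

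**Figure D1:**
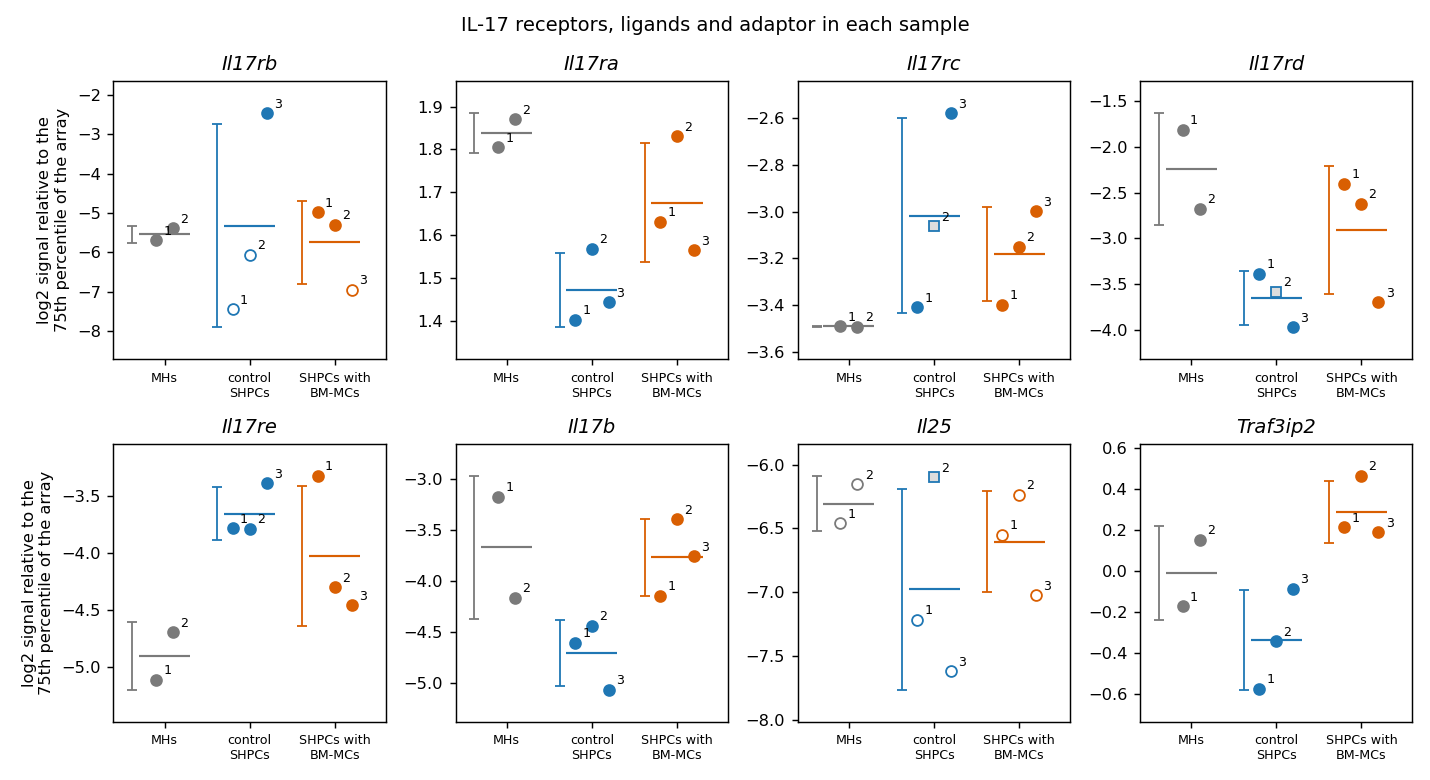
Log2 level of each of the 8 members (0 is the 75th percentile of the array) in 2 samples of MHs, 3 of control SHPCs and 3 of SHPCs with BM-MCs, for the brightest tested probe (for Il25 its only probe). Filled points were well above background, open points were not, grey squares had no mark, numbers give the replicate, horizontal lines the group mean and bars 1 SD. The vertical scale differs between panels. Il17rb of control SHPC replicate 3 stands far above all other samples, and no marked array had Il25 well above background.

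Among the receptors, Il17rb, the chain that binds IL-25 and IL-17B, had a signal near background. It was 28.85 and 40.3 in the 2 MHs, 8.81, 26.1 and 227 in the 3 control SHPCs, and 54.8, 36.5 and 11.1 in the 3 SHPCs with BM-MCs. The spot was well above background in both MHs, in control SHPC replicate 3 and in BM-MC replicates 1 and 2, and not in the other 3 samples. One control SHPC was thus the highest of all 8 samples, the samples not well above background have no order among themselves, and the 3 groups overlapped.

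The log2 level of Il17rb was -5.54 ± 0.21 (SD, n = 2) in MHs, -5.32 ± 2.57 (SD, n = 3) in control SHPCs and -5.74 ± 1.05 (SD, n = 3) in SHPCs with BM-MCs. The difference of SHPCs with BM-MCs minus control SHPCs was -0.42 with a standard error (SE) of 1.28 and an adjusted p of 0.889 by limma, and its 95% interval ran from -3.50 to 2.67. This interval holds changes of several fold in either direction. Control SHPCs minus MHs gave 0.22 (SE 1.32, limma adjusted p = 0.944), with an interval from -2.87 to 3.31, and SHPCs with BM-MCs minus MHs gave -0.20 (SE 1.32, limma adjusted p = 0.961), with an interval from -3.29 to 2.89. Neither direction nor size of an Il17rb difference was therefore detectable with these arrays.

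The direction of Il17rb turned with single samples and with the processing. Control SHPC replicate 3 was 5.74-fold above the next highest sample on the log2 scale of the test, and its spot was not marked as an outlier. Of 22969 probes with a value on every array, 14 (0.0610%) had this sample highest by at least that much, against 1 to 6 probes for any other sample. Without it, SHPCs with BM-MCs minus control SHPCs turned from -0.42 to 1.01 and control SHPCs minus MHs from 0.22 to -1.21. The 2 control samples that then remain were both not well above background, so these are not measured sizes. No lowest fold is given from them either, since the sample left out is the one with the highest Il17rb signal. Among the SHPCs with BM-MCs replicate 3 was dim as well. Leaving out BM-MC replicate 3 also turned SHPCs with BM-MCs minus control SHPCs, to 0.18. With the replicate number as a block control SHPCs minus MHs became -0.19. The difference of SHPCs with BM-MCs minus MHs turned to 0.067 with normexp background correction, 0.19 with a floor for dim spots and 0.40 without BM-MC replicate 3. Within the second set, where this sample is the only control, SHPCs with BM-MCs minus control SHPCs was -3.28, and within the first set, which holds only the 2 dim control samples, control SHPCs minus MHs was again -1.21. A fit with the set as a block gave the same values, and -4.49 (limma adjusted p = 0.35) for SHPCs with BM-MCs minus MHs.

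**Figure D2:**
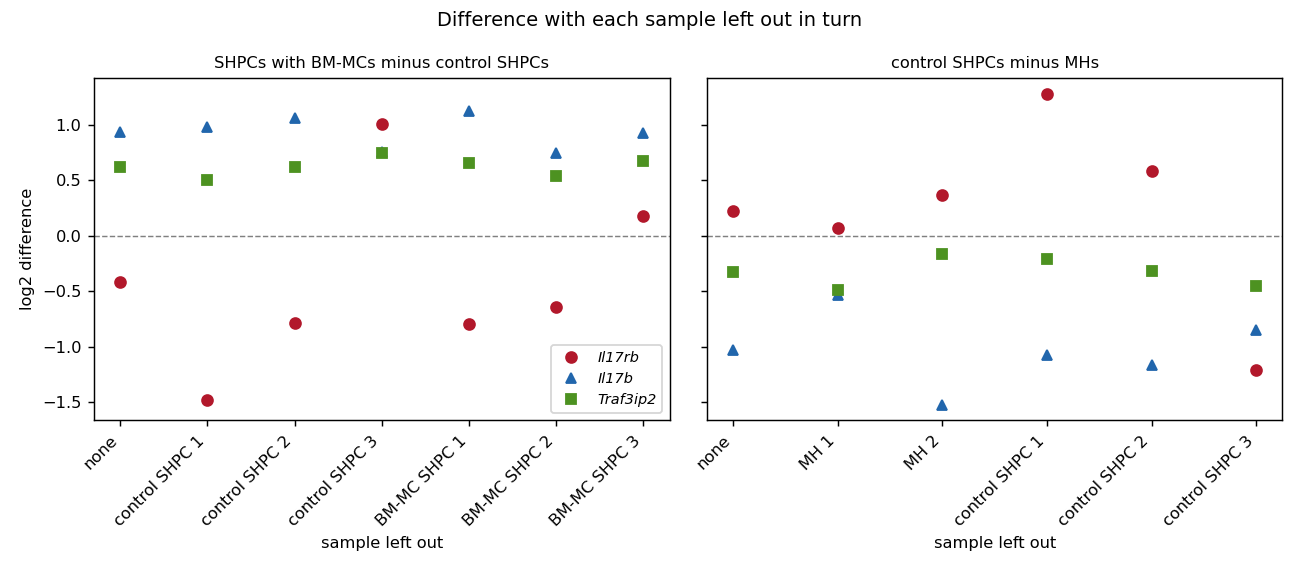
Log2 difference of Il17rb (circles), Il17b (triangles) and Traf3ip2 (squares) with all samples ("none") and with each sample of the groups compared left out in turn, for SHPCs with BM-MCs minus control SHPCs (left) and control SHPCs minus MHs (right). Il17rb changes sign without control SHPC replicate 3 in both panels, from -0.42 to 1.01 and from 0.22 to -1.21, where the control samples left are not well above background and the values are no measured sizes, and in the left panel also without BM-MC replicate 3, while Il17b and Traf3ip2 keep theirs.

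The probes most like Il17rb over the 8 samples were those for Hoxb3, Rbsn, LOC103695271, LOC302022 and Lrp1, with Pearson r of 0.957, 0.930, 0.927, 0.924 and 0.919. In all 5 control SHPC replicate 3 was also the highest sample. Over the other 7 samples the values of r were 0.856, 0.886, 0.743, 0.953 and 0.864. These r are a description, since the 5 were picked from 22969 probes for their likeness and all values share the scaling of the same arrays.

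Il17ra, the chain shared by the receptors, was measured by 10 spots of 1 probe, and on each array the spots had a coefficient of variation of 3.08% to 6.27%. Its signal was 5223 and 6198 in the MHs, 4063, 5173 and 3421 in the control SHPCs, and 5389, 5108 and 4043 in the SHPCs with BM-MCs. On each MH array 1 of the 10 spots was marked as an outlier and left out. The MHs lay above all control SHPCs, and the SHPCs with BM-MCs overlapped both groups.

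**Figure D3:**
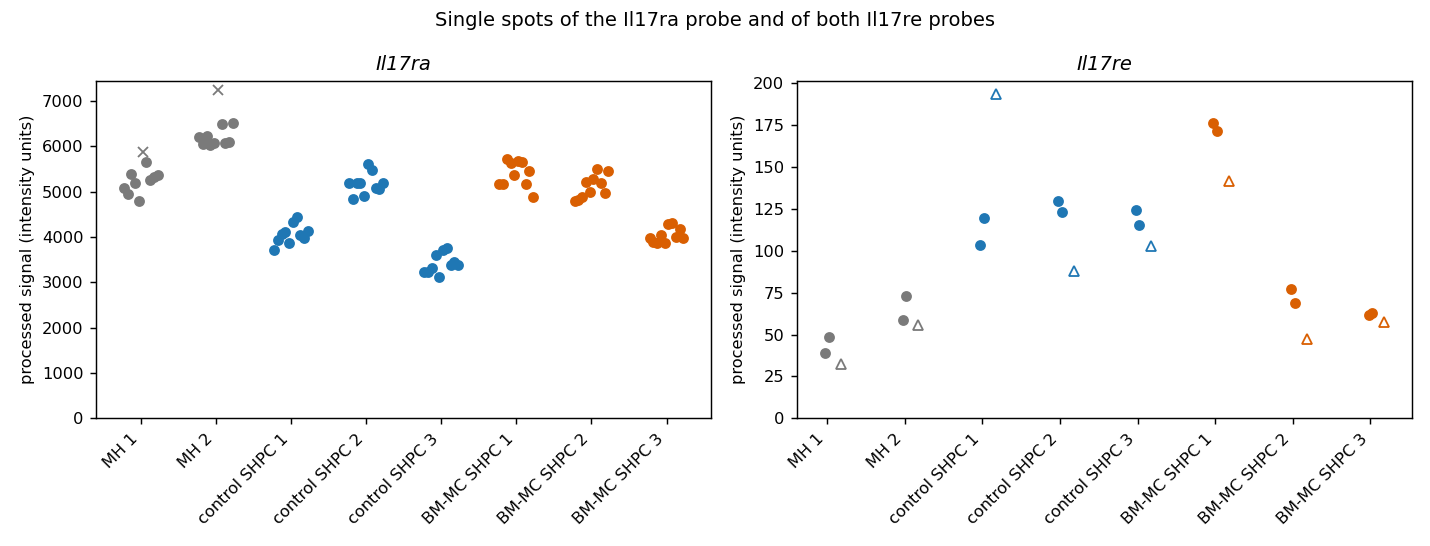
Processed signal of every spot of the Il17ra probe (left; crosses are spots left out as outliers) and of both Il17re probes (right; circles for 2 spots of the first probe, open triangles for 1 spot of the other) in each sample, in grey for MHs, blue for control SHPCs and orange for SHPCs with BM-MCs. The Il17ra spots of 1 array lie close together, and for Il17re the MHs, with 43.5 and 65.9 as the means of the first probe, lie below the 3 control SHPCs but not below BM-MC replicate 3 with 62.2.

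The log2 level of Il17ra was 1.84 ± 0.05 (SD, n = 2) in MHs, 1.47 ± 0.09 (SD, n = 3) in control SHPCs and 1.68 ± 0.14 (SD, n = 3) in SHPCs with BM-MCs. Control SHPCs minus MHs was -0.37 (SE 0.13), a level 1.29-fold lower, with a limma adjusted p of 0.201 and a 95% interval from -0.66 to -0.07 that is not adjusted for the number of probes. For SHPCs with BM-MCs minus control SHPCs the value was 0.20 (SE 0.12, limma adjusted p = 0.424), and with MHs subtracted it was -0.16 (SE 0.13, limma adjusted p = 0.600). Centring the arrays on the median in place of the 75th percentile moved the median of all probes in these 2 comparisons with BM-MCs from 0.02 to -0.17 and from 0.00 to -0.20, with Il17ra at 0.01 in the first of them and at -0.36 (limma adjusted p = 0.227) in the second. The choice of scaling thus nearly removed the difference of Il17ra between both groups of SHPCs and enlarged that from MHs. Without BM-MC replicate 2 these 2 differences were 0.13 and -0.24, and without BM-MC replicate 3 the second was -0.11.

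Il17rc, the partner of Il17ra for IL-17A and IL-17F, had a signal of 133 and 150.4 in the MHs, 144, 209 and 210.2 in the control SHPCs, and 165, 162 and 171 in the SHPCs with BM-MCs. Relative to the 75th percentile both MHs were below all 6 SHPC samples. The log2 level was -3.49 ± 0.002 (SD, n = 2), -3.02 ± 0.42 (SD, n = 3) and -3.18 ± 0.20 (SD, n = 3) in the same order. The difference of control SHPCs minus MHs was 0.48 (SE 0.24, limma adjusted p = 0.328), with 0.26 without control SHPC replicate 3 and 0.67 without replicate 1, and SHPCs with BM-MCs minus MHs 0.31 (SE 0.24, limma adjusted p = 0.596). The difference of SHPCs with BM-MCs minus control SHPCs was -0.17 (SE 0.23, limma adjusted p = 0.739), and turned to 0.055 when control SHPC replicate 3 was left out. Taking the set of arrays as a block made it -0.60, and SHPCs with BM-MCs minus MHs turned to -0.35.

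Il17rd, also known as Sef, is best known as an inhibitor of fibroblast growth factor signalling. Its tested probe read 427 and 265 in the MHs, 147, 145 and 80.0 in the control SHPCs, and 329, 233 and 105 in the SHPCs with BM-MCs. Both MHs were above all control SHPCs, while BM-MC replicate 3 lay among the control SHPCs and the other 2 SHPC samples with BM-MCs near the MHs. The further Il17rd probe, 5560 bases away, read 5.21 to 18.3 and was well above background on none of the 7 arrays with complete marks, so the 2 probes do not report alike.

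The log2 level of Il17rd by the tested probe was -2.24 ± 0.61 (SD, n = 2) in MHs, -3.65 ± 0.30 (SD, n = 3) in control SHPCs and -2.91 ± 0.70 (SD, n = 3) in SHPCs with BM-MCs. For control SHPCs minus MHs the difference was -1.41 (SE 0.43), a level 2.65-fold lower, with a limma adjusted p of 0.161. It lay between -1.84 and -0.97 with 1 sample left out, was -1.25 within the first set, and the adjusted p was 0.0704 to 0.476 over all 22 alternatives. With BM-MCs, Il17rd of SHPCs minus control SHPCs was 0.74 (SE 0.36, limma adjusted p = 0.355) and minus MHs -0.67 (SE 0.43, limma adjusted p = 0.519). With 1 sample left out the former was 0.49 (without BM-MC replicate 1) to 1.14 (without BM-MC replicate 3, limma adjusted p = 0.0995), and the latter -1.10 (without MH replicate 2) to -0.23 (without MH replicate 1). With the set of arrays as a block they were 1.06 and -0.18.

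Il17re, the IL-17C receptor chain found mainly on epithelial cells, had a signal of 43.5 and 65.9 in the MHs by its brightest probe, as the mean of 2 spots. It was 112, 126 and 119.9 in the control SHPCs, and 174, 73.0 and 62.2 in the SHPCs with BM-MCs. Relative to the 75th percentile all 6 SHPC samples were above both MHs, and BM-MC replicate 1 was above all control SHPCs while the other 2 were below them. The overlapping probe gave 32.7 and 55.4 in the MHs, 193, 87.9 and 103 in the control SHPCs, and 141, 47.1 and 57.6 in the SHPCs with BM-MCs. Both probes placed the MHs lowest on the log2 scale, but the overlapping probe read control SHPC replicate 1 highest and the first probe did not.

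The log2 level of Il17re by the brightest probe was -4.90 ± 0.29 (SD, n = 2) in MHs, -3.65 ± 0.23 (SD, n = 3) in control SHPCs and -4.03 ± 0.62 (SD, n = 3) in SHPCs with BM-MCs. Control SHPCs minus MHs was 1.25 (SE 0.34), a level 2.38-fold higher, with an unadjusted p of 0.00736 and an adjusted p of 0.14 by limma. The overlapping probe gave 1.59 (SE 0.48, limma adjusted p = 0.161). Without BM-MC SHPC replicate 1, a sample of the third group that enters only the shared spread, the adjusted p of the first probe was 0.0473 and Il17re passed. In that setting 227 probes were called higher and 56 lower, of 23111, against 212 and 50 with all samples. In no other alternative did a member pass after adjustment. For SHPCs with BM-MCs minus MHs the difference was 0.88 (SE 0.34, limma adjusted p = 0.351), and minus control SHPCs -0.37 (SE 0.32, limma adjusted p = 0.568). The last was -0.73 without BM-MC replicate 1, -0.16 without BM-MC replicate 3 and -0.64 within the second set, and the one before it 0.52 without BM-MC replicate 1 and 0.48 with the set as a block.

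Genes of cholangiocytes, another epithelial cell type of liver, were read beside Il17re. All 5 of 5 cholangiocyte markers were tested, and their summed level, as linear multiples of the 75th percentile of the array, was 0.286 to 0.355 in MHs, 0.418 to 0.462 in control SHPCs and 0.421 to 0.545 in SHPCs with BM-MCs. None of the 5 passed in a comparison. In control SHPCs minus MHs all 5 differences were above 0, from 0.10 for Sox9 (limma adjusted p = 0.895) to 1.75 for the keratin Krt19 (limma adjusted p = 0.179). All 5 were also above 0 in SHPCs with BM-MCs minus MHs, while 1 was above and 4 were below 0 in SHPCs with BM-MCs minus control SHPCs. In samples of this kind fewer cells of a type and less RNA per cell cannot be told apart. The part of cholangiocyte RNA in the Il17re values was not tested.

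Of the ligands, Il17b was well above background on all 8 arrays. Its signal was 165 and 94.5 in the MHs, 63.1, 80.5 and 37.6 in the control SHPCs, and 98.2, 136 and 100.9 in the SHPCs with BM-MCs. The 3 control SHPCs were below all other samples, and the SHPCs with BM-MCs overlapped the MHs. Its log2 level was -3.67 ± 0.70 (SD, n = 2) in MHs, -4.70 ± 0.32 (SD, n = 3) in control SHPCs and -3.77 ± 0.38 (SD, n = 3) in SHPCs with BM-MCs.

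The difference for Il17b of SHPCs with BM-MCs minus control SHPCs was 0.93 (SE 0.25), a level 1.91-fold higher, with an unadjusted p of 0.00812 and an adjusted p of 0.185 by limma, so that it did not pass. The difference was 0.75 to 1.12 with 1 sample left out and 1.30 within the second set, in which the only control sample, replicate 3, is the lowest of all 8. It was 0.44 with normexp background correction, the setting that moved it most, which used the 7 completely marked arrays and so left out control SHPC replicate 2. Control SHPCs minus MHs was -1.03 (SE 0.35, limma adjusted p = 0.188), and -0.85 within the first set. It was -0.54 without MH replicate 1 and -1.52 without MH replicate 2. SHPCs with BM-MCs minus MHs was -0.10 (SE 0.35, limma adjusted p = 0.927). Its direction was not settled, with 0.45 with the set of arrays as a block, 0.40 without MH replicate 1, 0.09 without BM-MC replicate 1 and -0.59 without MH replicate 2.

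Il25 read 16.96 and 23.8 in the MHs, 10.3, 25.4 and 6.39 in the control SHPCs, and 18.5, 19.0 and 10.5 in the SHPCs with BM-MCs. None of the 7 arrays with a mark for its spot had it well above background, and control SHPC replicate 2, which had the highest signal, has no mark there. Differences between groups were therefore not detectable, and no fold change is given.

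The other ligands of the family had 1 probe each. Il17a and Il17f, whose proteins are made mainly by T cells and innate lymphoid cells, read 5.19 to 7.61 and 4.98 to 7.11 over the 8 samples and were well above background on 0 of 7 arrays. Of the markers of T cells and innate lymphoid cells, Cd3d, Cd3g and Il7r were well above background on 7 of 7 arrays, Lck on 3, Cd2 on 1, and Cd3e, Cd5, Gata3 and Klrb1 on 0. The first 4 were tested and none passed in a comparison, with a summed level of 0.716 to 0.990 over all samples. Il17c, the ligand of Il17re, read 348 to 659 and Il17d 40.8 to 59.7, each well above background on 7 of 7 arrays. With BM-MCs against control, Il17c of SHPCs differed by -0.40 (SE 0.21, limma adjusted p = 0.388) and Il17d by -0.16 (SE 0.21, limma adjusted p = 0.712). Neither passed in a comparison with MHs.

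Traf3ip2, which encodes the adaptor Act1, was read by 2 probes. The brighter gave 1325 and 1882 in the MHs, 1030, 1373 and 1180 in the control SHPCs, and 2013, 1978 and 1557 in the SHPCs with BM-MCs. The other gave 131 and 206 in the MHs, 111, 177 and 149 in the control SHPCs, and 229, 214 and 186 in the SHPCs with BM-MCs. By both probes, on the log2 scale, the 3 SHPC samples with BM-MCs were above all control SHPCs and above both MHs.

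The difference for Traf3ip2 of SHPCs with BM-MCs minus control SHPCs was 0.62 (SE 0.16), a level 1.54-fold higher, with an unadjusted p of 0.0076 and an adjusted p of 0.183 by limma. The further probe gave 0.54 (SE 0.20, limma adjusted p = 0.268). Leaving out 1 sample gave 0.50 to 0.75, with a limma adjusted p of 0.0777 without control SHPC replicate 3. Within the second set of arrays the difference was 0.38, and the further probe gave 0.22. SHPCs with BM-MCs minus MHs was 0.30 (SE 0.19, limma adjusted p = 0.509), which turned to -0.07 with the set of arrays as a block and was 0.14 without MH replicate 1 and 0.46 without MH replicate 2, and control SHPCs minus MHs was -0.32 (SE 0.19, limma adjusted p = 0.374). The last was -0.16 without MH replicate 2 and -0.49 without MH replicate 1.

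**Figure D4:**
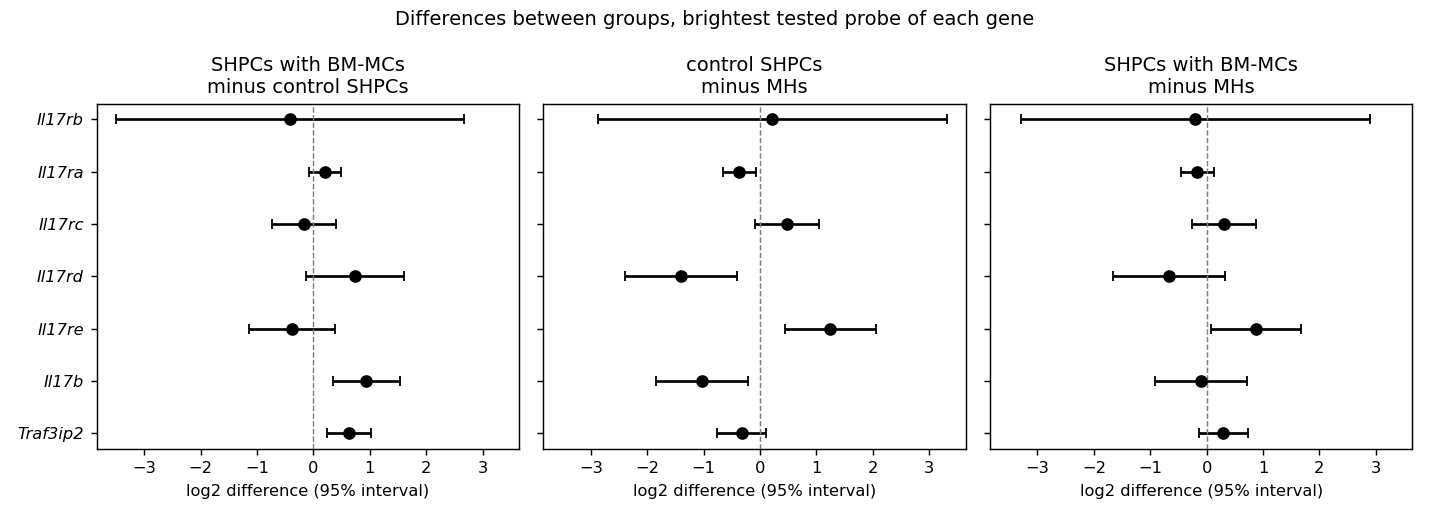
Log2 differences between groups for the 7 members with a tested probe, with unadjusted 95% intervals from limma, for SHPCs with BM-MCs minus control SHPCs (left), control SHPCs minus MHs (middle) and SHPCs with BM-MCs minus MHs (right). None passed the adjusted threshold. The intervals of Il17rb are the widest, as from -3.50 to 2.67 in the left panel.

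Groups that do not overlap were common among all probes. SHPCs with BM-MCs and control SHPCs did not overlap for 2 of 7 members, Il17b and Traf3ip2, both higher with BM-MCs, while 24.7% of all probes did not overlap. Control SHPCs and MHs did not overlap for 5 of 7 members, with Il17rc and Il17re higher and Il17ra, Il17rd and Il17b lower in control SHPCs, beside 41.4% of all probes. SHPCs with BM-MCs and MHs did not overlap for 3 of 7 members, Il17rc, Il17re and Traf3ip2, each higher in SHPCs with BM-MCs, beside 32.3%. These counts rest on 7 genes and the comparisons share samples, so nothing is read from them about the family.

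Macrophage genes were read beside these values. All 9 of 9 markers of Kupffer cells and macrophages were tested, with a summed level of 87.0 to 93.9 in MHs, 45.1 to 65.5 in control SHPCs and 56.6 to 81.0 in SHPCs with BM-MCs. None of the 9 passed in a comparison. In control SHPCs minus MHs 8 of the 9 differences were below 0 and 1, for Marco, above it (0.08), and the lowest limma adjusted p was 0.152, for Cd68 (-0.84). In SHPCs with BM-MCs minus control SHPCs 6 were above 0 and 3 below. Il17ra, Il17rd and Il17b had their group means in the same order as the means of these sums. The endothelial and stellate sums given next had that order too, so it is not particular to macrophage genes. How many of all probes share it was not counted, and for Il17b the order of MHs and SHPCs with BM-MCs was not settled. Of 8 markers of sinusoidal endothelial cells 6 were tested and none passed, with 5 of 6 below 0 in control SHPCs minus MHs and 5 of 6 above 0 in SHPCs with BM-MCs minus control SHPCs. Their summed level was 14.4 to 17.3 in MHs, 12.8 to 14.6 in control SHPCs and 14.8 to 16.4 in SHPCs with BM-MCs. For 6 of 6 markers of stellate cells, of which none passed, it was 6.0 to 6.17, 4.63 to 4.99 and 4.37 to 6.77. The part of macrophage, endothelial or stellate cell RNA in these values was not tested.

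Signalling downstream of the receptors was read from 68 genes of the IL-17 pathway outside the members, of which 47 were tested. Of these 0 passed the test in either direction in each of the 3 comparisons, beside 0.0216%, 1.13% and 0.338% of all probes. With so few probes passing, this count does not show that the signalling was unchanged. In SHPCs with BM-MCs against control SHPCs, 31 of 47 differences were above 0 with a median of 0.08, beside a median of 0.02 over all probes. When arrays were centred on the median it was 17 of 47 with a median of -0.12, but all probes moved as well, to a median of -0.17. In control SHPCs against MHs 15 of 47 were above 0, with a median of -0.13 beside -0.03 over all probes, and in SHPCs with BM-MCs against MHs 18 of 47, with a median of -0.10 beside 0.00. Centring on the median left the former count at 15 and moved the latter to 8, with a median of -0.30 beside -0.195 over all probes. The unadjusted p was under 0.05 for 8, 7 and 5 of the 47 genes in these comparisons, beside 16.6%, 19.2% and 13.3% of all probes.

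Among adaptors and kinases 20 of 22 were tested. Traf6, the ubiquitin ligase that Act1 engages, had a log2 level of -4.48 ± 0.03 in SHPCs with BM-MCs and -4.23 ± 0.06 in control SHPCs (SD, n = 3 each), a difference of -0.25 (limma adjusted p = 0.287). Ikbke, a kinase that phosphorylates Act1, differed by 0.50 (limma adjusted p = 0.163) in the same comparison. Ikbkg, the regulatory subunit of the IkB kinase complex, was at -0.66 ± 0.14 (SD, n = 3) in control SHPCs and 0.14 ± 0.03 (SD, n = 2) in MHs, a difference of -0.80 (limma adjusted p = 0.125, and 0.0389 without BM-MC SHPC replicate 3). In that setting the probes called rose from 212 higher and 50 lower to 309 and 214, so passing there is not particular to Ikbkg. For Ikbkg SHPCs with BM-MCs differed from MHs by -0.55 (limma adjusted p = 0.332). The stress kinase Mapk9 differed by -0.61 (limma adjusted p = 0.165) between control SHPCs and MHs, and the deubiquitinase Usp25, an inhibitor of this signalling, by -0.39 (limma adjusted p = 0.366) with BM-MCs against MHs. None of these passed with all samples.

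Of the transcription and RNA regulators 10 of 14 were tested. Jun, a subunit of AP-1, had a log2 level of 1.04 ± 0.42 in SHPCs with BM-MCs and -0.22 ± 0.27 in control SHPCs (SD, n = 3 each), a difference of 1.26 (limma adjusted p = 0.134), and differed from MHs by 0.95 (limma adjusted p = 0.267). Zc3h12a, the RNase Regnase-1 that degrades mRNAs of inflammation, was well above background on all 3 arrays of SHPCs with BM-MCs, on that of MH replicate 2 and on 0 of 2 marked control arrays. It thus met the filter mainly through the SHPCs with BM-MCs. Between both groups of SHPCs it did not pass the test (limma adjusted p = 0.17), and no fold is given. Srsf1, a splicing factor that binds Act1, differed from MHs by 0.45 (limma adjusted p = 0.210) in control SHPCs and by 0.62 (limma adjusted p = 0.243) in SHPCs with BM-MCs. The 4 inhibitors Tnfaip3, Nfkbia, Dusp1 and Tnip1 were all tested and did not pass in a comparison.

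Target genes were the least measured, with 11 of 24 tested. Il6, Ccl20, Csf2 and the mucin Muc5ac were among those not tested. S100a9 and S100a8, which encode calprotectin of neutrophils, had a log2 level of -2.37 ± 0.33 and -2.41 ± 0.19 in SHPCs with BM-MCs, and of -0.53 ± 0.19 and -0.95 ± 0.42 in control SHPCs (SD, n = 3 each). The differences of -1.84 (limma adjusted p = 0.0677) and -1.46 (limma adjusted p = 0.117) did not pass, and the groups did not overlap. Both passed without control SHPC replicate 3 (-1.85 with a limma adjusted p of 0.0344 for S100a9 and -1.68 with 0.0285 for S100a8), and S100a9 also passed without scaling of the arrays and with an intensity trend (limma adjusted p = 0.0206 and 0.0201). In these settings the probes called rose from 5 to 490 higher and 40 lower, to 206 higher and 7 lower and to 29 higher and 4 lower, so passing there is not particular to these genes. Both genes are also in the granulocyte list, of which 3 of 6 were tested. The third of them, Retnlg, was well above background on 7 of 7 arrays and differed by -1.30 (limma adjusted p = 0.0859) in the same comparison, also without passing. The list, which rests on S100a8 and S100a9 as well, had a summed level of 0.394 to 1.51 in MHs, 1.13 to 1.57 in control SHPCs and 0.363 to 0.481 in SHPCs with BM-MCs. The other granulocyte genes Mpo, Elane and Csf3r were well above background on 0 of 7 arrays. The part of granulocyte RNA in the values of S100a8 and S100a9 was not tested.

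The remaining targets named by the lowest p-values differed less. The metalloreductase Steap4 was at 1.96 ± 0.13 (SD, n = 3) in control SHPCs and 2.57 ± 0.001 (SD, n = 2) in MHs, a difference of -0.61 (limma adjusted p = 0.138), and SHPCs with BM-MCs differed from MHs by -0.39 (limma adjusted p = 0.373). Csf3, the granulocyte colony-stimulating factor, and the chemokine Cxcl10 differed by 0.43 (limma adjusted p = 0.332) and 0.70 (limma adjusted p = 0.391) between control SHPCs and MHs. Ccl2, a chemokine that draws monocytes, was well above background on 2 of 3 arrays with BM-MCs and 1 of 2 arrays of MHs, so the fitted difference of 1.36 (limma adjusted p = 0.435) rests partly on dim spots and is no measured size.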

How the data were processed

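RNA of microdissected cells was labelled with Cy3 and hybridised to 1-colour Agilent rat arrays. The authors deposited Agilent Feature Extraction 10.7 output and a value table, both holding the processed signal, an intensity from which the software had subtracted background, with no scaling between arrays (per the labels and file headers). The scanner file of control SHPC replicate 2 held 20903 of 62976 features, so all signals were taken from the value table, which differed from the complete files by a relative 1.19e-06 at most.

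Samples were grouped by title. Control spots and spots marked as outliers were left out, the 75th percentile of an array's log2 signals was subtracted from each of them, and the spots of a probe were averaged. Such scaling can move a difference, as for Il17ra. A gene with several tested probes was counted by its brightest. Probes entered the tests if they exceeded background clearly on 3 or more of the 7 completely marked arrays. R 4.3.3 and limma 3.58.1 were used, and p-values were adjusted by Benjamini-Hochberg, with SHPCs with and without BM-MCs in a fit of 6 samples and both comparisons with MHs in a fit of all 8. The number of arrays limits the precision. The script was tested on simulated data. Intervals are 95% intervals of a single difference.

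All member probes are described. Of the pathway list, genes that passed and the 3 with the lowest p in each comparison and direction are named, and for Il17rb the 5 most similar probes. Members and lists were chosen with earlier results of these data known. Alternatives changed the scaling, background correction, filter, floor, outliers, samples fitted, replicate and slide blocks, intensity trend, test and probe choice, and left out each sample. The normexp background correction was run on the 7 completely marked arrays, without control SHPC replicate 2.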

Additional observations from a re-analysis of the deposited data

How the results depend on the processing

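No member passed under any adjusted alternative except Il17re in control SHPCs minus MHs without BM-MC SHPC replicate 1. The number of members called was otherwise 0, and leaving out 1 sample gave 0 to 1 in control SHPCs minus MHs and 0 in both comparisons with BM-MCs. Where Il17re passed, 227 probes were called higher and 56 lower, of 23111. By the methods' t-test without adjustment 2 members were called in SHPCs with BM-MCs minus control SHPCs, 3 in control SHPCs minus MHs and 0 in SHPCs with BM-MCs minus MHs, and 0 in each after adjustment. That test without adjustment called 6, 8 and 4 of 47 pathway genes, beside 14.9%, 17.5% and 9.25% of all probes. In SHPCs with BM-MCs minus control SHPCs 1 pathway gene was called without scaling, 1 with an intensity trend, S100a9 in both, and 0 to 2 with 1 sample left out (2 without control SHPC replicate 3), while the probes called rose from 5 to 206 higher and 7 lower, to 29 and 4 and to 490 and 40. In control SHPCs minus MHs it was 0 to 1 with 1 sample left out (1 without BM-MC SHPC replicate 3, where the probes called rose from 212 higher and 50 lower to 309 and 214). Other settings called 0.

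Il17rb reversed most. In SHPCs with BM-MCs minus control SHPCs it was -1.48 to 1.01 with 1 sample left out, the highest when control SHPC replicate 3 was dropped, and 0.18 without BM-MC SHPC replicate 3. Control SHPCs minus MHs gave -1.21 to 1.28 with 1 sample left out, and -1.21 with the array set as a block. Values that leave only control replicates 1 and 2 are set against signals not well above background. SHPCs with BM-MCs minus MHs for Il17rb became 0.067 with normexp, 0.19 with a floor for dim spots and -0.58 to 0.40 with 1 sample left out. In the same comparison the set of arrays as a block turned Il17rc to -0.35, Il17b to 0.45 and Traf3ip2 to -0.072. As this comparison lies wholly across the sets, these block values rest on control SHPC replicate 3 and settle no direction. With 1 sample left out Il17b was -0.59 to 0.40, being above 0 without MH replicate 1 or BM-MC SHPC replicate 1. With 1 sample left out Il17rc was -0.36 to 0.055 between both SHPC groups, above 0 only when control SHPC replicate 3 was dropped. Beyond the samples and sets named, the cause was not tested.

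Same-numbered SHPC samples correlated at 0.13, 0.08 and 0.17 in their deviations from the group means, and differently numbered ones at -0.15 to 0.08. Each BM-MC sample correlated best with its own number, while control SHPC replicate 2 was slightly nearer BM-MC SHPC replicate 1 (0.082 against 0.078). Whether the numbers stand for pairs is thus not settled, and the main fit did not take them as pairs. With the replicate number as a block 0 members were called in each of the 3 comparisons, Il17rb in control SHPCs minus MHs became -0.19, and the probes called changed from 5 to 0, from 212 higher and 50 lower to 130 and 29, and from 78 to 0. In SHPCs with BM-MCs minus control SHPCs the block lowered the SE of Il17rd from 0.36 to 0.19 (limma adjusted p = 0.237). Members with an unadjusted limma p under 0.05 went from 2 to 3 of 7 there, and probes from 3834 to 4016 of 23111. A single spot near background limits the reading of Il17rb, and Il25 was left out by the filter on dim probes.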
